A study of Arabidopsis thaliana with 24 samples.

Results

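Transposable elements (TEs) that gave RNA in every library of an Arabidopsis leaf series were examined. A TE was taken when its row, joined over the 5 deposited TE count tables, held at least 20 counts in each of the 12 RNA libraries. This left 586 of 31189 TEs (1.88%), whereas 8278 TEs (26.5%) had a count in any library. The 586 TEs nevertheless held 88.5 to 92.5% of all TE counts of a library. The counts themselves chose them, so that being expressed is not a finding here. Of the 6 groups, each with 2 libraries, 1n is haploid and 2n is diploid. DH6, DH9 and DH14 are doubled-haploid lines, and the meaning of sDH is not spelled out in the labels. All plants were 2 weeks old and had been grown on soil, and RNA came from leaves 6, 7 and 8, although the tissue label reads seedlings. Names of the deposited tables carry Col, the usual short form of the Columbia accession, while the labels name no accession, and neither says whether the plants of a group were separate or pooled. Table columns named WT were taken as 2n, the group left without other columns, and numerals II and III name the libraries of DH6 and sDH as the tables do. The columns of DH9 and DH14 carry I and II, written here as 1 and 2. The p-values below measure the spread between these libraries, which may be technical.

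TEs are DNA segments that move, or once moved, by way of an RNA copy (retrotransposons) or by excision of the DNA (DNA transposons). In Arabidopsis most of them are held silent by methylation of cytosines and of histone H3. MET1 and CMT3 copy DNA methylation after replication, DDM1 opens heterochromatin to these enzymes, and small RNAs guide DRM2 to TEs in the chromosome arms. TE fragments can lie in or beside genes, and reads of a gene's transcript can then be counted for the TE. The tables give TE identifiers without family, position, strand or length, and no sequence is shown. Whether a given TE was transcribed from its own promoter or as part of a gene was not tested.

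Levels are counts per 1000000 gene counts of the same library (CPM), with gene totals of 16484799 to 22146896, so that 20 counts stood for 0.903 to 1.21 CPM. They are not divided by length, and an order of TEs by level is an order of counts. In leaf RNA of this kind, fewer cells of a type and less RNA per cell cannot be told apart. The leaf genes RBCS1A, LHCB1.1 and RCA stood at 5618 CPM or more in every library. The 12 listed markers of root, flower, pollen, seed and shoot meristem reached at most 4.74 CPM, highest for the root gene PYK10, and CRU3, SESA3, OLEO1, AP3 and WUS were at 0 in 11 of 12 libraries. The part of other tissue in the TE levels was not tested.

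The summed level of the 586 TEs was lowest in 1n. It was 8224 and 8137 CPM in the 1n libraries and 10068 and 10338 CPM in those of 2n. The DH6 libraries had 10084 and 9995 CPM, DH9 10328 and 10654, DH14 10196 and 11149 and sDH 11335 and 10592. All 10 libraries of the other groups lay above both 1n libraries, while the ranges of DH9, DH14 and sDH overlapped each other. The range of 2n overlapped with those of DH6, DH9 and DH14. Relative to the 1n mean, the group mean was 24.7% higher for 2n, 22.7% for DH6, 28.2% for DH9, 30.5% for DH14 and 34.02% for sDH. The 4 TEs with the highest mean level supplied 23.3% of the mean sum, and without them the sums of the other groups were still 1.16 to 1.33 times that of 1n. The summed level of all other TEs differed less, with ratios to 1n from 0.933 for DH14 to 1.198 for DH6. When gene totals were rescaled with TMM factors (trimmed mean of M values), which give less weight to strongly differing genes, the ratios to 1n were 1.14 to 1.28. When the TE counts themselves set the scale, they were 1.01 to 1.16, close to 1 by construction. No p is given for the sum, because its members were chosen on the same counts.

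**Figure D1:**
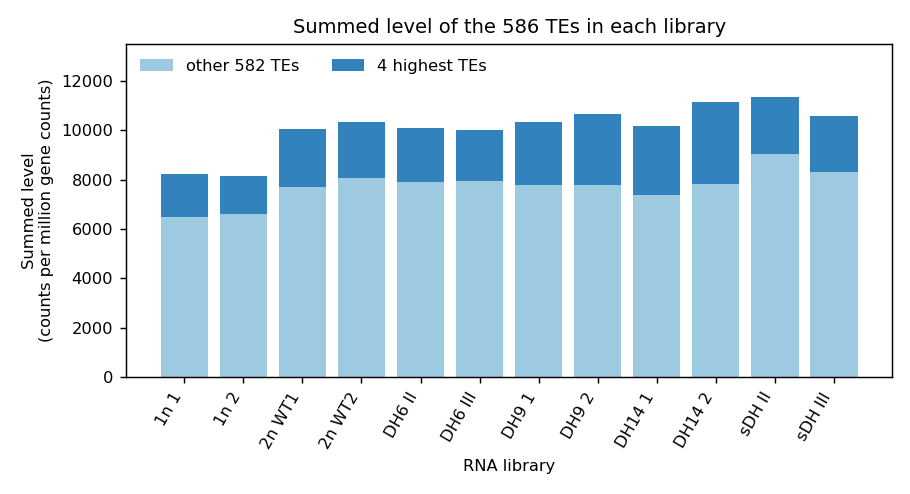
Summed level of the 586 TEs in each RNA library (bars, CPM), split into the 4 TEs with the highest mean level (dark) and the other 582 (light). Both 1n bars, at 8224 and 8137, stand below all others, which reach from 9995 to 11335.

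Counts were concentrated on few TEs. The mean level ranged from 1.46 to 1082 CPM with a median of 6.61, and 8 TEs lay at 100 CPM or more. The 50 highest TEs supplied 52.3% of the mean sum and the 100 highest 65.5%. AT2TE18115 alone supplied 10.7%. Its levels were 830.4 and 623 CPM (1n), 1089 and 1006 (2n), 946 and 843 (DH6), 1104 and 1376 (DH9), 1359.5 and 1671 (DH14), 1039 and 1097 (sDH). All 10 libraries of the other groups lay above both 1n libraries, and DH14 2 was the highest. Against 1n, AT2TE18115 rose by edgeR's test in DH14 (log2 change 1.06, SE 0.13, adjusted p = 2.67e-05), DH9 (log2 change 0.77, SE 0.13, adjusted p = 0.000425), sDH (log2 change 0.56, SE 0.13, adjusted p = 0.00229) and 2n (log2 change 0.53, SE 0.13, adjusted p = 0.00509). The change for DH6 did not pass (edgeR, log2 change 0.30, SE 0.13, adjusted p = 0.0799).

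The next TEs in level had different patterns over the groups. AT4TE59630 stood at 428 and 396 CPM (1n), 657 and 621 (2n), 633 and 645 (DH6), 579.5 and 594 (DH9), 527 and 558 (DH14), 685 and 693 (sDH). Both 1n libraries were again the lowest and both sDH libraries the highest. It rose against 1n in all 5 groups, by 0.40 in DH14 to 0.74 in sDH on the log2 scale (largest edgeR adjusted p = 0.00289). AT3TE32730 had 277 and 352 CPM (1n), 384 and 409 (2n), 334 and 304 (DH6), 640.5 and 668 (DH9), 738 and 849 (DH14), 348 and 285 (sDH). All 4 libraries of DH9 and DH14 exceeded the other 8. By edgeR it rose for DH14 against 1n (log2 change 1.34, SE 0.12, adjusted p = 9e-07) and against 2n (log2 change 1.00, SE 0.12, adjusted p = 2.32e-05), and for DH9 against 1n (log2 change 1.06, SE 0.12, adjusted p = 1.08e-05) and against 2n (log2 change 0.72, SE 0.12, adjusted p = 0.00061). For DH6 and sDH its log2 changes against 1n were 0.02 and 0.01 and did not pass.

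Of the other TEs in the top 6, AT3TE95080 ranged from 158 CPM in 1n 2 to 266 in DH6 III, and AT1TE17050 from 74.1 in 1n 1 to 156 in sDH II. AT1TE88825 ranged from 74.2 CPM in 1n 1 to 155 in sDH II and did not pass edgeR's F test among the 6 groups (adjusted p = 0.0875). Its 1n libraries, at 74.2 and 119.5 CPM, spanned much of that range.

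**Figure D2:**
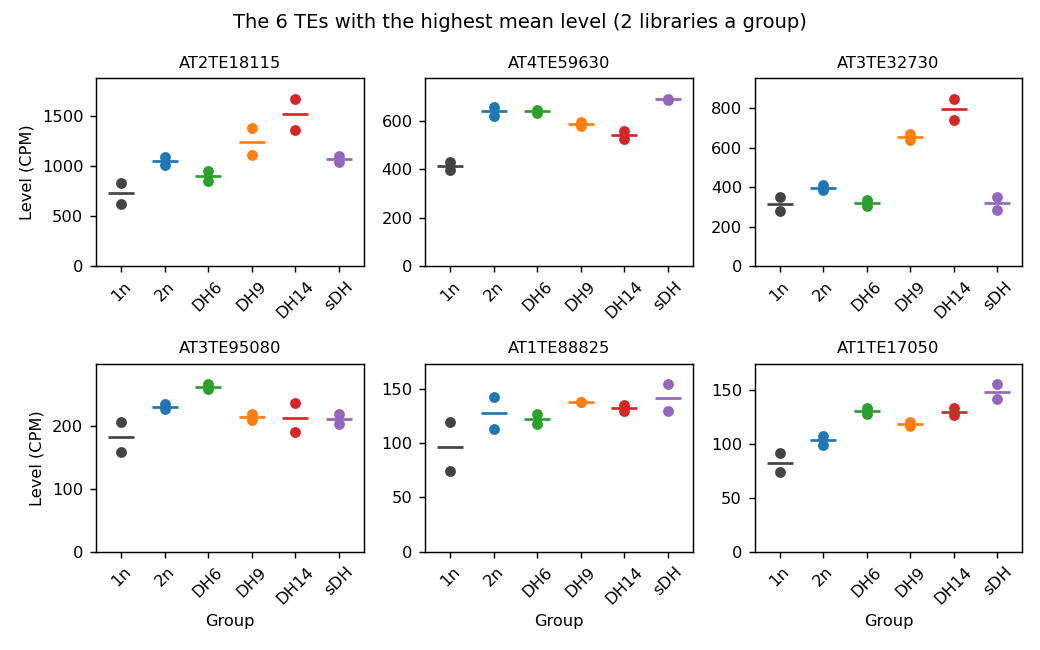
Levels of the 6 TEs with the highest mean level, in CPM, by group; points are libraries (2 a group) and lines are group means. AT3TE32730 is higher in DH9 and DH14 than in the other 4 groups. By group means all 6 TEs are lowest in 1n. For AT2TE18115, AT4TE59630 and AT1TE17050 both 1n libraries lie below all others.

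Most of the 586 TEs differed between groups. In edgeR's quasi-likelihood F test of equal means in all 6 groups, 383 of 586 passed an adjusted p of 0.05 (65.4%), where 49.3% of all 1374 TEs tested passed. Of 15888 genes that held at least 20 counts in every library, 66.02% passed the same test, and of all genes tested 62.4%. By the rule, the 586 TEs have a count minimum that the other tested TEs lack, and the part of depth in the share was not tested. The highest library exceeded the lowest by a median of 2.46-fold, by less than 2-fold in 166 TEs (28.3%, against 57.7% of those genes) and by 10-fold or more in 8 (1.37%, against 1.88%). Genes chosen by the same rule had a median of 1.86-fold, and their median level, 18.99 CPM, was higher than the 6.61 CPM of the TEs. Between the 2 libraries of a group the median absolute log2 difference of the TEs lay between 0.16 in DH6 and 0.25 in 1n. More than 2-fold differences between both libraries occurred in 25 of 586 TEs in 1n and in 0 to 11 TEs in each other group.

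The steadiest TE was AT1TE02770. It was at 22.7 and 22.3 CPM (1n), 19.9 and 19.8 (2n), 18.5 and 18.6 (DH6), 23.2 and 21.4 (DH9), 19.3 and 23.03 (DH14), 20.7 and 19.2 (sDH). Its highest library exceeded its lowest by 1.26-fold, and 1n overlapped with DH9 and with DH14. AT5TE81425, AT3TE34225 and AT1TE39630 followed, with 1.26-, 1.34- and 1.35-fold. For these 4 TEs the F test among the 6 groups did not pass (edgeR adjusted p = 0.202 to 0.685), which does not show that they were equal.

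The most variable TE was AT3TE76010, with a 39.9-fold difference between libraries. It was at 54.9 and 50.4 CPM (1n), 36.3 and 35.6 (2n), 1.81 and 2.59 (DH6), 15.2 and 9.98 (DH9), 16.5 and 14.5 (DH14), 2.90 and 1.38 (sDH). Without overlap, 1n was highest, then 2n, then DH9 with DH14, and DH6 with sDH lowest. Against 1n it fell by edgeR's test in DH6 (log2 change -4.58, SE 0.27, adjusted p = 1.16e-09), sDH (log2 change -4.59, SE 0.27, adjusted p = 1.31e-09), DH9 (log2 change -2.07, SE 0.23, adjusted p = 8.95e-06) and DH14 (log2 change -1.76, SE 0.22, adjusted p = 3.88e-05). Although the libraries did not overlap, 2n against 1n did not pass (edgeR, log2 change -0.55, SE 0.21, adjusted p = 0.061).

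Other TEs stood apart in 2n. AT1TE80815 was at 2.55 and 3.76 CPM (1n), 21.97 and 24.2 (2n), 0.903 and 1.34 (DH6), 3.56 and 3.92 (DH9), 5.03 and 4.75 (DH14), 2.42 and 2.47 (sDH). The 2n libraries were the highest and those of DH6 the lowest. By edgeR it rose in 2n against 1n (log2 change 2.87, SE 0.23, adjusted p = 9.46e-08), and in DH6 it fell against 1n (log2 change -1.49, SE 0.28, adjusted p = 0.000492) and against 2n (log2 change -4.36, SE 0.25, adjusted p = 2.17e-09). AT4TE64410 was instead lowest in 2n, with 23.1 and 23.2 CPM (1n), 1.79 and 1.41 (2n), 10.9 and 11.6 (DH6), 12.6 and 14.1 (DH9), 28.98 and 32.6 (DH14), 28.5 and 23.6 (sDH). It fell in 2n against 1n (edgeR, log2 change -3.84, SE 0.20, adjusted p = 3.05e-10). Against 2n it rose in all 4 other groups, with log2 changes of 2.80 in DH6, 3.05 in DH9, 4.02 in sDH and 4.26 in DH14. AT2TE72160 was at 5.61 and 14.2 CPM (1n), 30.4 and 46.2 (2n), 1.94 and 3.31 (DH6), 13.9 and 11.2 (DH9), 31.6 and 31.97 (DH14), 4.47 and 8.72 (sDH). Its 2n and DH14 libraries shared the top, its DH6 libraries the bottom, and its 1n libraries differed by more than 2-fold from each other.

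**Figure D3:**
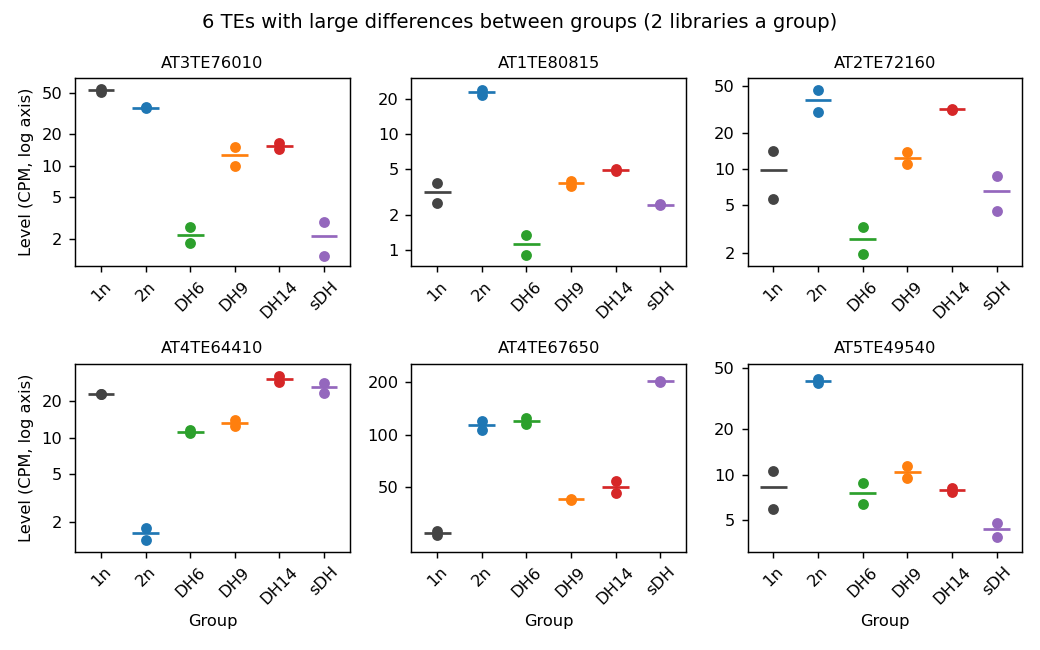
Levels of 6 TEs with large differences between groups, in CPM on log axes, by group; points are libraries (2 a group) and lines are group means. AT1TE80815 and AT5TE49540 are highest and AT4TE64410 is lowest in 2n, AT3TE76010 is lowest in DH6 and sDH, and AT4TE67650 is highest in sDH, at 204 and 202.

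The comparisons against 1n set each other group beside the haploid. For 2n against 1n, 172 of 586 TEs rose (21.1% of all TEs tested did) and 62 fell (8.22%). The median log2 change of the 586 TEs was 0.24, beside 0.24 over all TEs tested and 0.13 over genes with 20 counts in every library. AT5TE49540 was at 5.96 and 10.6 CPM in 1n and 42.6 and 39.9 in 2n, and rose (edgeR, log2 change 2.32, SE 0.23, adjusted p = 1.2e-06). Its 8 libraries of DH6, DH9, DH14 and sDH lay at 3.898 to 11.4 CPM, below both 2n libraries. AT1TE70530 rose from 2.14 and 1.46 to 6.85 and 10.96 CPM (edgeR, log2 change 2.30, SE 0.27, adjusted p = 7.11e-06). AT3TE37080 fell from 8.16 and 13.95 to 1.33 and 1.58 CPM (edgeR, log2 change -2.92, SE 0.30, adjusted p = 1.42e-06), and AT2TE28180 fell from 4.98 and 10.4 to 1.23 and 1.64 CPM (edgeR, log2 change -2.43, SE 0.40, adjusted p = 0.000199). Both TEs that fell had 1n libraries far apart from each other. Without 2n WT2, 144 TEs passed in place of 234.

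For DH6 against 1n, 192 of 586 TEs rose (22.1% of all TEs tested did) and 80 fell (12.2%), with a median log2 change of 0.25, the same as over all TEs tested. AT4TE67650 was at 26.4 and 27.8 CPM in 1n and 125 and 115 in DH6, and rose (edgeR, log2 change 2.15, SE 0.12, adjusted p = 1.16e-09). AT5TE34945 rose from 3.94 and 4.25 to 17.2 and 19.3 CPM (edgeR, log2 change 2.16, SE 0.21, adjusted p = 5.48e-07) and AT5TE68170 from 2.95 and 1.64 to 11.2 and 9.11 CPM (log2 change 2.14, SE 0.30, adjusted p = 4.1e-05). For each of the 3 the gap between both groups exceeded the spread of either. AT5TE49725 fell from 10.8 and 25.3 to 2.35 and 2.59 CPM (edgeR, log2 change -2.87, SE 0.32, adjusted p = 2.87e-06), and AT5TE31350 from 18.0 and 12.2 to 2.21 and 2.49 CPM (log2 change -2.68, SE 0.25, adjusted p = 4.63e-07). In these, 1n was the group with the wider spread. Without DH6 III, 174 TEs passed in place of 272.

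For sDH against 1n the count was highest among the 5 comparisons: 218 of 586 TEs rose (26.3% of all TEs tested did) and 72 fell (11.8%). The median log2 change was 0.31, beside 0.30 over all TEs tested. AT4TE67650 reached 204 and 202 CPM in sDH and rose (edgeR, log2 change 2.91, SE 0.12, adjusted p = 1e-11). AT4TE61260 rose from 6.95 and 5.34 to 47.4 and 37.1 CPM (edgeR, log2 change 2.78, SE 0.18, adjusted p = 4.16e-09), and AT5TE34945 reached 26.9 and 20.99 CPM (log2 change 2.55, SE 0.21, adjusted p = 7.17e-08). By group means, these 3 TEs were highest in sDH, next in DH6 and lowest in 1n. AT5TE49725 fell to 3.33 and 2.93 CPM (edgeR, log2 change -2.52, SE 0.31, adjusted p = 5.75e-06). AT1TE71775 fell from 27.2 and 21.4 to 5.56 and 3.21 CPM (edgeR, log2 change -2.45, SE 0.24, adjusted p = 4.62e-07). Its DH6 libraries, at 6.82 and 6.19 CPM, were low too, and those of 2n, DH9 and DH14 stood at 23.9 to 46.6 CPM.

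Fewer TEs passed for DH9 and DH14, a difference in counts that was not itself tested. For DH9 against 1n, 139 of 586 TEs rose (15.7% of all TEs tested did) and 38 fell (6.04%), with a median log2 change of 0.24, beside 0.22 over all TEs tested. AT5TE76490 rose from 3.88 and 9.46 to 25.4 and 28.1 CPM (edgeR, log2 change 2.01, SE 0.28, adjusted p = 7.42e-05), where the remaining groups stood at 9.87 to 20.7 CPM. AT4TE10035 rose from 1.22 and 2.97 to 7.51 and 5.63 CPM (edgeR, log2 change 1.65, SE 0.33, adjusted p = 0.00162), and AT5TE33550 from 2.66 and 3.15 to 9.52 and 8.37 CPM (log2 change 1.62, SE 0.22, adjusted p = 5.59e-05). These 2 were as high or higher in 2n and DH6, and AT5TE33550 was highest in sDH, at 15.5 and 13.8 CPM. AT5TE31350 fell to 4.34 and 3.47 CPM (edgeR, log2 change -1.95, SE 0.24, adjusted p = 2.71e-05). In place of 177 TEs, 97 passed without DH9 1, 83 without DH9 2 and 117 without 1n 2.

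For DH14 against 1n, 102 of 586 TEs rose (11.1% of all TEs tested did) and 32 fell (4.95%), with a median log2 change of 0.20, beside 0.17 over all TEs tested. AT1TE04835 rose from 2.66 and 2.12 to 9.696 and 6.74 CPM (edgeR, log2 change 1.77, SE 0.28, adjusted p = 0.00035), and AT5TE11920 from 6.31 and 9.77 to 22.5 and 26.5 CPM (log2 change 1.61, SE 0.21, adjusted p = 4.1e-05). AT2TE72160, whose levels are given above, rose too (edgeR, log2 change 1.68, SE 0.34, adjusted p = 0.00237). AT3TE37080 fell to 4.303 and 3.85 CPM (edgeR, log2 change -1.44, SE 0.27, adjusted p = 0.0013). AT3TE29990, at 3.99 and 8.55 CPM in 1n, fell to 2.02 and 2.25 in DH14 (edgeR, log2 change -1.55, SE 0.37, adjusted p = 0.00693) and to 1.45 and 2.15 in DH9 (log2 change -1.79, SE 0.38, adjusted p = 0.00249). With single libraries left out, its calls did not all pass by edgeR's test. It did not pass in DH14 without 1n 2 (log2 change -0.90, adjusted p = 0.154), DH14 1 (log2 change -1.48, adjusted p = 0.0768) or DH14 2 (log2 change -1.63, adjusted p = 0.079), nor in DH9 without 1n 2 (log2 change -1.14, adjusted p = 0.0556) or DH9 1 (log2 change -1.54, adjusted p = 0.064). The change was smaller without 1n 2 than with all libraries, and about as large without a library of DH14. Without DH14 2, 47 TEs passed for DH14 in place of 134.

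Rises outnumbered falls against 1n with TMM factors too. On gene totals, genes with at least 20 counts in every library also rose more often than they fell. Their shares up and down were 30.0 and 15.1% for 2n, 27.9 and 20.8% for DH6, and 20.8 and 11.6% for DH9. For DH14 the shares were 15.4 and 10.1%, and for sDH 29.5 and 21.4%. Median log2 changes of those genes were 0.13, 0.06, 0.07, 0.03 and 0.08 in this order of groups. All 5 comparisons share the 1n libraries, so that they are not independent. With TMM factors 125 TEs rose and 82 fell for 2n, 174 and 88 for DH6, 120 and 47 for DH9, 91 and 37 for DH14, and 207 and 83 for sDH. The median log2 change of the 586 TEs moved by -0.12 for 2n and by -0.07 to -0.04 for the other groups. TE counts as the scale centre these same TEs, which hold most of the TE counts, so that medians near 0 and nearly even splits follow largely by construction. The medians then moved by -0.36 to -0.17. The splits were 102 up and 99 down for 2n, 115 and 126 for DH6, 69 and 75 for DH9, 71 and 58 for DH14, and 144 and 147 for sDH. They do not bear on which direction prevailed.

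**Figure D4:**
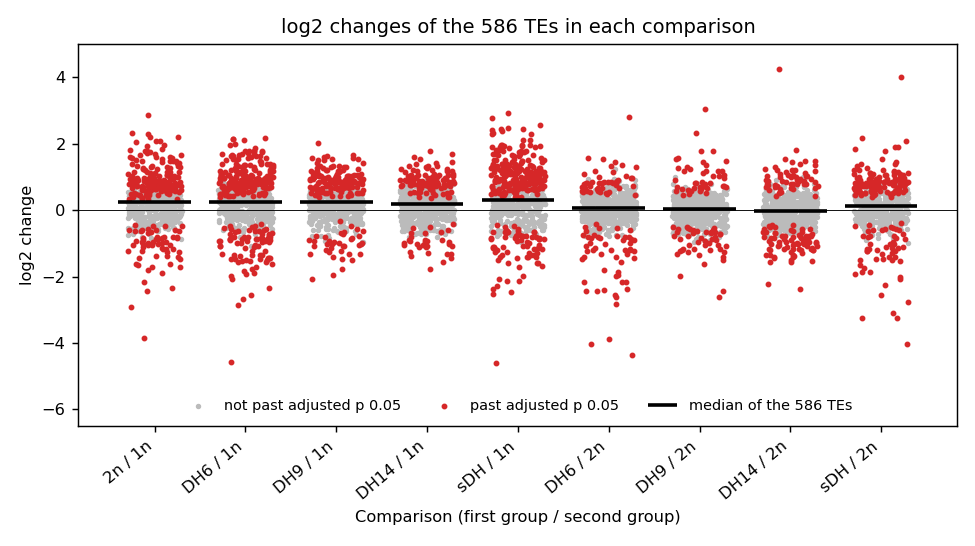
log2 changes of the 586 TEs (points, those past an edgeR adjusted p of 0.05 in colour) in 9 comparisons, with the median as a bar; the horizontal position within a comparison is random. Medians against 1n lie at 0.20 to 0.31 and those against 2n at -0.03 to 0.14, with gene-count totals as the scale.

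Against 2n, rises and falls were closer in number. For DH6, 47 of 586 TEs rose (5.31% of all TEs tested did) and 54 fell (8.81%), and for DH9, 44 of 586 TEs rose (5.82% of all TEs tested did) and 47 fell (6.55%). For DH14, 57 of 586 TEs rose (6.99% of all TEs tested did) and 78 fell (9.9%), and for sDH, 115 of 586 TEs rose (11.6% of all TEs tested did) and 55 fell (8.95%). Median log2 changes were 0.07 for DH6, 0.02 for DH9, -0.03 for DH14 and 0.14 for sDH. For DH6, DH9 and DH14 the balance was close enough to turn with small shifts of the scale. With TMM factors the splits were 66 up and 46 down for DH6, 50 and 38 for DH9, 84 and 69 for DH14, and 131 and 49 for sDH. With TE counts as the scale, which centres these TEs, they were 42 and 60 for DH6, 44 and 45 for DH9, 79 and 71 for DH14, and 85 and 75 for sDH, where the median moved by -0.13.

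Among single TEs, AT5TE46175 rose in DH6 from 2.91 and 2.54 to 9.44 and 6.72 CPM (edgeR, log2 change 1.56, SE 0.27, adjusted p = 0.000496). Its DH9 libraries stood at 6.79 and 5.58 CPM, overlapping with those of DH6. AT4TE10320 rose in DH9 from 2.299 and 2.37 to 12.02 and 11.6 CPM (edgeR, log2 change 2.33, SE 0.23, adjusted p = 2.32e-06), and 1n stood at 10.3 and 13.7 CPM, overlapping with DH9. AT2TE56040 fell in DH9 from 28.5 and 19.8 to 5.45 and 3.47 CPM (edgeR, log2 change -2.44, SE 0.34, adjusted p = 7.77e-05). For this TE 2n stood above the other 5 groups. AT5TE49540, high in 2n alone, fell in sDH (edgeR, log2 change -3.25, SE 0.24, adjusted p = 3.58e-08) and in DH14 (log2 change -2.38, SE 0.23, adjusted p = 1.93e-06). AT3TE37080, low in 2n, rose in sDH to 5.705 and 7.34 CPM (edgeR, log2 change 2.16, SE 0.31, adjusted p = 4.94e-05). AT2TE28180 rose in DH14 to 5.91 and 4.196 CPM (edgeR, log2 change 1.82, SE 0.41, adjusted p = 0.00501). It did not pass without 2n WT1 (edgeR, log2 change 1.62, adjusted p = 0.081) or DH14 1 (log2 change 1.55, adjusted p = 0.067), where the change was nearly as large.

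The counts against 2n moved by over 1.5 times when single libraries were left out. The 101 TEs of DH6 became 62 without 2n WT1, 46 without 2n WT2, 45 without DH6 II and 39 without DH6 III. The 91 TEs of DH9 became 56 and 48 without 2n WT1 and WT2, 40 without DH9 1 and 40 without DH9 2. The 135 TEs of DH14 became 70 without WT1, 85 without WT2, 83 without DH14 1 and 54 without DH14 2. The 170 TEs of sDH became 107 without WT1, 109 without WT2 and 102 without sDH II. Each of these fits left a compared group with 1 library, which gives the test less information. The lower counts therefore do not tell whether the calls rest on particular libraries.

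Where a whole group lay apart from the rest, it was most often 1n on the low side or sDH on the high side. Both 1n libraries lay below the other 10 in 139 of 586 TEs (23.7%, where 17% of all TEs tested and 19.95% of genes with 20 counts in every library did). They lay above the others in 41 (6.997%, against 6.19% of all TEs and 9.80% of those genes). Both sDH libraries lay above the other 10 in 127 TEs (21.7%, against 14.5% of all TEs and 9.52% of those genes) and below in 27 (4.61%, against 4.08% and 8.21%). Libraries of 2n had 40 TEs above and 30 below (7.86 and 4% of all TEs tested). For DH6 there were 23 TEs above and 26 below (3.86 and 3.28% of all TEs tested), for DH9 14 TEs above and 7 below (2.69 and 1.02% of all TEs tested) and for DH14 14 TEs above and 16 below (2.91 and 2.33% of all TEs tested).

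Examples of these patterns were chosen after their values were seen, as the TEs with the widest gap to the other libraries. AT5TE30490 was at 3.24 and 3.82 CPM in 1n and at 7.84 to 20.6 CPM in the other 10 libraries. AT5TE34715 was at 6.66 and 6.85 CPM in 1n and at 1.82 to 3.52 CPM elsewhere. Thus the first was low and the second high in 1n. AT1TE98100 was at 10.2 and 9.75 CPM in sDH and at 1.78 to 4.296 CPM elsewhere, and AT5TE27865 at 1.81 and 1.66 CPM in sDH and 3.84 to 13.8 CPM elsewhere.

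Pairs of groups also stood apart together. Of the 15 pairs, DH6 with sDH most often had all 4 libraries above the other 8, in 74 TEs (12.6%, against 7.35% of all TEs tested and 6.43% of genes with 20 counts in every library). All 4 lay below in 21 (3.58%, against 3.49% of all TEs and 7.14% of those genes). AT5TE06170 was at 27.4 and 28.5 CPM in DH6 and 26.7 and 27.9 in sDH, and at 10.99 to 17.96 CPM in the other 8 libraries. DH9 with DH14 lay above the rest in 23 TEs (3.92%, against 2.69% of all TEs and 1.35% of those genes) and below in 5 (0.853%, against 0.728% of all TEs and 1.68% of those genes). Among them AT4TE46815 was at 13.1 and 13.9 CPM in DH9 and 10.7 and 12.9 in DH14, and at 3.79 to 6.61 CPM in the rest. 1n with DH14 lay below the other 8 in 41 TEs (6.997%, against 4.44% of all TEs and 8.33% of those genes) and above in 7 (1.19%, against 1.02% of all TEs and 3.01% of those genes). AT1TE04200 was at 4.11 and 2.67 CPM in 1n and 4.41 and 6.14 in DH14 and at 9.32 to 16.8 CPM in the rest. These 3 examples, too, were chosen after their values were seen. The libraries of DH6 and sDH share the numerals II and III, and the column names of DH9 and DH14 share I and II. Whether these mark a shared sowing or harvest was not tested.

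The identifiers of the 586 TEs lay towards both ends of the numbering. In the naming used for Arabidopsis the digit after AT gives the chromosome and the last digits run along it, a convention that was not checked against coordinates. The identifiers of each prefix were put in numerical order and divided into 10 bins of nearly equal size. The first bin held 140 of the 586 TEs and the last 139, or 4.49 and 4.46% of the TEs there. The fourth bin held 8, or 0.256% of its TEs. The first bin differed between prefixes. The 586 TEs made up 7.89% of the TEs there for AT3TE, 6.29% for AT5TE and 4.91% for AT1TE, but 1.41% for AT4TE and 0.8403% for AT2TE. In the last bin the shares were 3.25 to 5.84% for all 5 prefixes. Over whole prefixes the shares ranged from 1.46% for AT2TE to 2.202% for AT5TE.

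**Figure D5:**
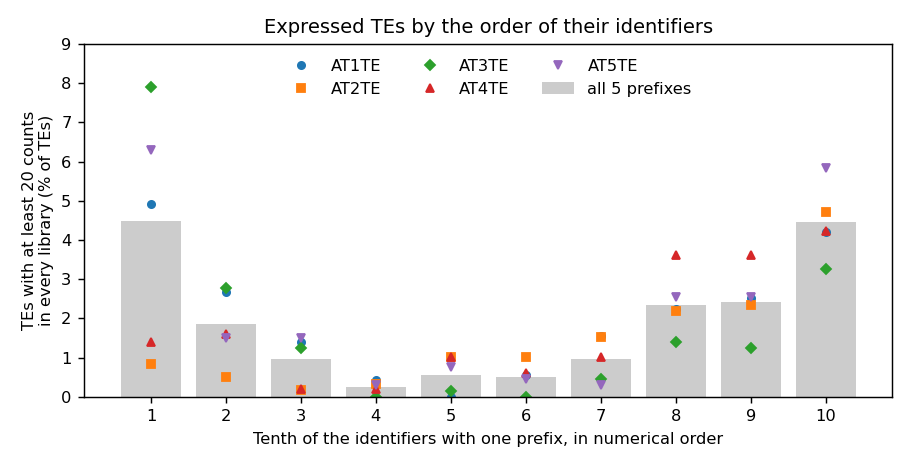
Share of TEs with at least 20 counts in every library (%, vertical axis) in each of 10 nearly equal bins of the identifiers in numerical order (horizontal axis); bars give all 5 identifier prefixes together and points single prefixes. The first and last bins hold 4.49 and 4.46%, and the fourth bin 0.256%.

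Of the 586 TEs 88 had another of them as direct neighbour in the identifier order, in 42 runs, of which 4 were of 3 TEs and the others were pairs. Over the 12 libraries the log2 levels of the 46 neighbouring pairs had a median correlation of 0.276, with values from -0.812 to 0.981. All pairs of the 586 TEs had a median of 0.0727. Of the neighbouring pairs 4 had r above 0.9 (8.696%, against 0.626% of all pairs). AT3TE36450 and AT3TE36455 had the highest value (r = 0.981 over 12 libraries). Both were highest in sDH, at 59.1 and 58.4 CPM and at 38.4 and 31.5 CPM. AT4TE34010 and AT4TE34015 followed (r = 0.957), both low in DH6 and sDH. There AT4TE34010 lay at 11.6 to 20.2 CPM, and in the other 8 libraries at 49.5 to 109 CPM. These pairs were named after their values were seen. Such values share libraries and depth, and whether neighbours share reads was not tested.

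Genes that act in TE silencing, or against it, were read in the same comparisons. The 19 listed were MET1, CMT2, CMT3, DRM2, DDM1, VIM1, SUVH4, NRPD1, NRPE1, RDR2, DCL3, AGO4, CLSY1, MOM1, MORC6, HDA6 and RDR6, and the demethylases ROS1 (of DNA) and IBM1 (of histone H3), which counteract silencing. All were tested, and 11 rose and 1 fell for 2n against 1n (42.3% of all genes tested passed in either direction), 9 and 1 for DH6 (46.8%), 10 and 0 for DH9 (31.1%), 10 and 0 for DH14 (24%), and 12 and 1 for sDH (48.9%). With TMM factors 9, 8, 10, 9 and 11 rose in the same order of groups. DDM1, the remodeller that opens heterochromatin, was at 8.45 and 8.01 CPM in 1n and at 12.7 to 18.5 CPM in the other 10 libraries, and rose against 1n in all 5 groups (largest edgeR adjusted p = 0.00158). CMT3 was at 20.95 and 20.1 CPM in 1n and at 31.8 to 45.1 CPM elsewhere, and rose in all 5 groups with log2 changes of 0.70 to 1.08 (largest edgeR adjusted p = 0.00463). Neither gene overlapped between 1n and the rest. The same held for MET1, VIM1, SUVH4, NRPE1, DCL3, AGO4, CLSY1, ROS1 and IBM1. Of all genes tested, 18.5% had both 1n libraries below the other 10. ROS1 was among the rises for 2n (log2 change 0.71, edgeR adjusted p = 0.0023), DH9 (0.97, adjusted p = 0.000582), DH14 (1.01, adjusted p = 0.000896) and sDH (0.54, adjusted p = 0.00912), and IBM1 passed in none of the 5 comparisons against 1n. NRPD1, the largest subunit of RNA polymerase IV, which starts small RNA production at TEs, fell in 2n (log2 change -1.08, edgeR adjusted p = 0.00195), DH6 (-0.91, adjusted p = 0.00433) and sDH (-1.31, adjusted p = 0.00053). Against 2n, 0 rose and 1 fell for DH6 (24.3% of all genes), 1 and 1 for DH9 (18%), 2 and 2 for DH14 (27.8%), and 2 and 0 for sDH (29.5%). With TMM factors these were 0 and 1, 2 and 0, 3 and 1, and 6 and 0. Whether these genes bear on the TE levels was not tested.

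At the edge of the rule, 7 TEs had 20 counts in their lowest library and 13 others had 19. AT5TE47040, just inside, was at 1.06 to 2.23 CPM over the libraries, and AT3TE79015 at 1.11 to 2.32 CPM. AT3TE32785, just outside, was at 1.1 and 1.27 CPM in 1n and at 3.17 to 14.98 CPM elsewhere. AT5TE71390, also outside, was at 1.1 and 1.52 CPM in 1n and 3.96 to 6.99 CPM elsewhere. A TE that is low in a single group can thus fall outside the rule. In 2n against 1n 11.4% of the 586 TEs had a log2 change above 1 and 5.63% below -1, and of the other 788 tested TEs 26.4 and 15.5%. Those others nevertheless passed less often in that comparison, in 21.4% against 39.9% of the 586 TEs.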

How the data were processed

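RNA from leaves was measured in 12 libraries, 2 in each of 6 groups, and the DNA methylation samples of the series were not analysed here. The deposited tables hold raw read counts per TE and per gene. The submitters' processing notes name TAIR10, HISAT2, Subread and DESeq2. Strand setting, versions and the rule for multiply aligned reads are not given in those notes. Tables were joined on their identifiers. The gene table of sDH repeats the column of 1n 1, and gene counts of 1n 2 came from the other gene tables.

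TE counts were scaled by the gene-count total of the same library. filterByExpr of edgeR (count 10, total 15) left 1374 TEs and 19201 genes. A quasi-likelihood model with a mean per group was fitted to all 12 libraries (edgeR 4.0.16, limma 3.58.1, R 4.3.3), with Benjamini-Hochberg adjustment over all TEs, or all genes, of a comparison. The code was tested on simulated data. SE is the log2 change over the square root of F. A TE rose or fell when its adjusted p lay under 0.05. Alternatives were DESeq2 1.42.0, TMM factors, TE totals as the scale, no filter, minima of 10 and 40 counts, each library left out, and the replicate block. Counting error is largest for TEs near 20 counts.

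The members and lists were chosen with earlier results of these data known. Named TEs are the 6 highest, the 4 most and 4 least variable, and 2 on each side of the minimum count. In each comparison the 3 highest and 3 lowest log2 changes against 1n, and 2 and 2 against 2n, were added from TEs past the threshold whose groups did not overlap. Part of the repeats are not retold. Neighbours were defined by sorted identifiers, since the table rows are unsorted, and no longest run was named because 4 were equally long.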

Additional observations from a re-analysis of the deposited data

How the results depend on the processing

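The 46 named changes kept their direction in all 760 recomputed values, and 7 of these no longer passed, each without 1 library (AT3TE29990 and AT2TE28180). The named changes had been chosen from these data as large changes whose groups did not overlap. A kept direction when a library was left out thus follows largely from that choice. Counts of passing TEs stayed within 1.5 times under DESeq2, both other scales, no filter and a minimum of 10 counts. With a minimum of 40 counts 66 TEs passed in DH6 against 2n in place of 101. A minimum of 40 counts leaves fewer TEs in the set, and a minimum of 10 takes in more, so that counts of passing TEs shift with set size. Whether the share of passing TEs changed under these minima was not tested. Leaving out each library gave 144 to 234 in 2n against 1n, 174 to 271 for DH6, 83 to 176 for DH9, 47 to 126 for DH14 and 231 to 289 for sDH. Against 2n it gave 39 to 128 for DH6, 40 to 101 for DH9, 54 to 155 for DH14 and 102 to 191 for sDH, and among the 6 groups 324 to 378. A group left with 1 library was taken to vary like the other groups. With TMM factors the summed level over that of 1n was 1.14 for 2n, 1.17 for DH6 and 1.23 for DH9. With TE counts as the scale it was 1.06 for 2n, 1.01 for DH6, 1.095 for DH9, 1.16 for DH14 and 1.05 for sDH, where most of the TE counts that set the scale are those summed.

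The replicate block was fitted for 1n, DH9 and DH14, whose columns carry the numbers of the labels, as I and II for DH9 and DH14. It gave 156 TEs for DH9 against 1n and 117 for DH14, and the same 6 libraries without the replicate block 166 and 118. The deviations of same-numbered libraries from their group means correlated at -0.0916 for 1n with DH9, -0.0589 for 1n with DH14 and 0.108 for DH9 with DH14, which was not taken as pairing. Whether numbers mark a shared batch was not tested. The 2n columns, named WT1 and WT2, were not matched to label numbers, and those of DH6 and sDH carry II and III. Fits restricted to the libraries of 1n, DH9 and DH14, the summed level without single libraries and TMM factors for the listed genes were chosen after seeing the data. With 2 libraries a group and 20 counts at the edge of the rule, small differences could not be detected.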
